A study of Mus musculus with 4 samples.

Results

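The 10 genes studied belong to the tumour necrosis factor (TNF) ligand family, and they were followed in activated CD4+ T cells that lack the transcription factor Irf4. They were taken by name (Tnf, Lta, Ltb, Cd40lg, Fasl, Tnfsf4, Tnfsf8, Tnfsf10, Tnfsf11 and Tnfsf14), with a rule that uses no measured value, though with earlier results of these data known, and are 10 of the 45526 genes or unnamed transcripts on the array, read by 12 probes. TNF ligands are trimeric proteins that sit in the membrane of activated lymphocytes or are shed from it, and they bind receptors of the TNF receptor family on neighbouring cells. Those receptors either assemble TRAF adaptors and activate NF-kB, which drives costimulation and survival, or recruit FADD and caspase 8 and kill the cell. Helper T cells are known to deliver costimulation, lymphoid tissue signals and death signals through these ligands after antigen receptor engagement.

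The study measured total RNA on one-colour arrays in 2 Irf4-/- and 2 wild-type (WT) samples of splenic CD4+ T cells from male C57BL/6 mice. Naive cells of each genotype had been sorted and stimulated with an antibody to CD3e at 1 µg/ml beside mitomycin C-treated antigen-presenting cells, and live CD4+ cells were sorted again after 2 days, so all samples share the stimulation and the second sort. The labels give 2 independent experiments per genotype. How the Irf4 allele was made, and whether animals were pooled, is not stated in the labels. A general culture note in the labels names shorter incubation times, while titles and design give day 2.

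Levels below are log2 signals relative to the 75th percentile of the array, so a level of 0 is the signal of that percentile, and a difference is the Irf4-/- mean minus the WT mean (n = 2 arrays per genotype throughout). A probe counts as well above background by the flag of the extraction software. Differences were tested with limma over the 20505 genes or transcripts whose probe passed that flag in both samples of either genotype, and a gene is called at a Benjamini-Hochberg adjusted p under 0.05. Levels of different genes come from different probes and are not set against each other. In sorted but still bulk cultures, fewer cells making a transcript and less transcript per cell cannot be told apart.

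Between 25677 and 28725 probes per array were well above background. Irf4 itself was at 4.23 and 4.04 in Irf4-/- cells, against 5.03 and 4.74 in WT cells, a difference of -0.75 ± 0.20 (SE) that did not pass (limma, adjusted p = 0.231). Where its probes lie relative to the deleted part is not given, so this signal checks nothing about the labels. The T cell markers Cd3d, Cd3e, Cd3g, Cd4, Cd28, Lat, Cd5 and Cd6 were all well above background on every array. Of these 8, 4 differences were positive and 4 negative (median 0.01). Without overlap, Cd5 (0.86, limma, adjusted p = 0.130) and Cd6 (0.75, 0.173) were higher in Irf4-/- cells. Cd28 (-0.48, 0.407) and Cd3g (-0.12, 0.931) were lower without overlap. Over all tested genes 17.9% lay higher and 21.3% lower without overlap. All 4 arrays shared a slide and a scan, with replicates 1 of both genotypes in slide row 1 and replicates 2 in row 2, so a slide row holds 1 replicate number. The WT arrays lay in other slide columns than the Irf4-/- arrays, so slide column and genotype cannot be told apart.

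Most TNF ligand genes had more signal in Irf4-/- cells. Of the 9 that could be tested, 7 had positive and 2 negative differences, and 1 of 9 passed the test, the TRAIL gene Tnfsf10 (0.493% of all tested genes were called higher and 0.244% lower). The median difference was 0.98 over the 9 members, against -0.02 over all 20505 tested genes. In all 9 the genotypes did not overlap, with both Irf4-/- arrays above both WT arrays for 7 members and below them for Tnf and Ltb. Over all tested genes 17.9% lay above and 21.3% below without overlap. The 7 members with positive differences all had an unadjusted p under 0.05, a result shared by 6.35% of tested genes on the higher side. All 9 were well above background on all 4 arrays, and the tenth, Cd40lg, was not tested.

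**Figure D1:**
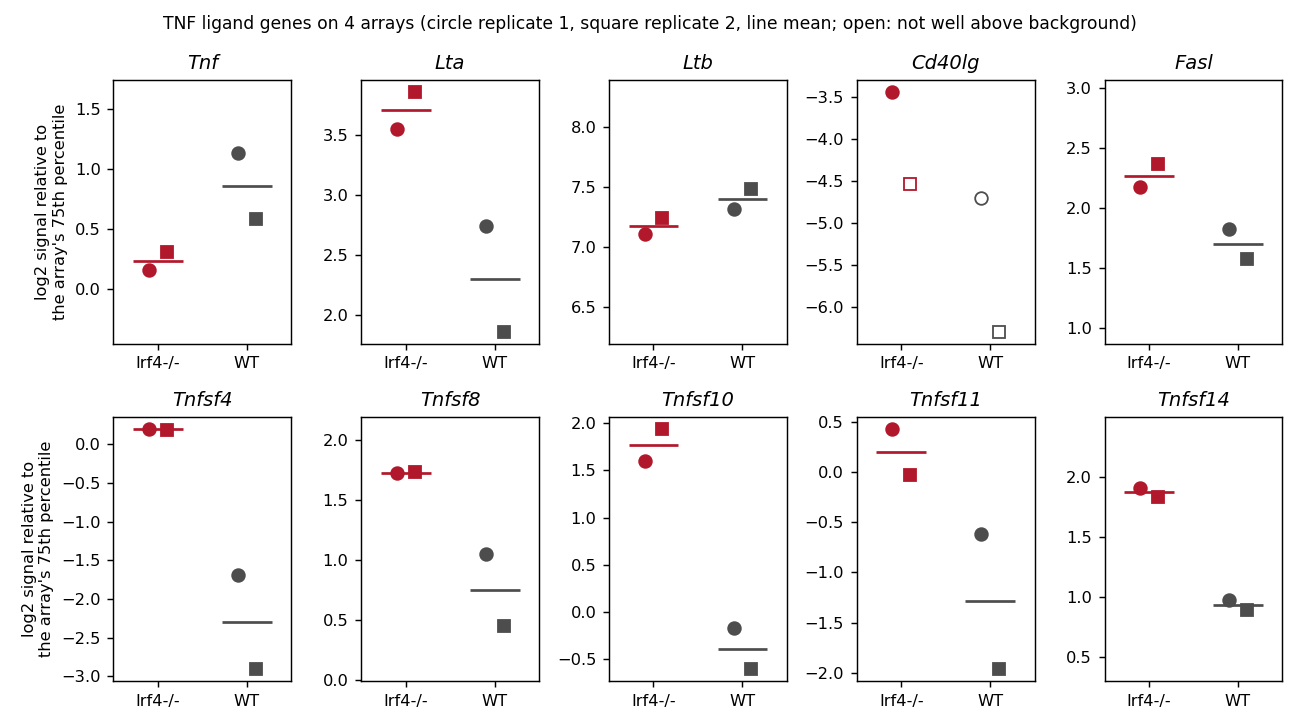
Level of each TNF ligand gene on each array, as log2 signal relative to the 75th percentile of the array, with Irf4-/- left of WT and a separate axis for each gene. Circles are replicate 1, squares replicate 2 and lines group means. The Irf4-/- points lie above the WT points for 7 genes above background and below them for Tnf and Ltb, and 3 of 4 Cd40lg points are open because that probe was not well above background there.

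The death-inducing ligands are described first. TRAIL binds death receptors on target cells, and its gene is known to be induced by interferons. Tnfsf10 had levels of 1.60 and 1.94 in Irf4-/- cells, against -0.17 and -0.60 in WT cells. The nearest arrays of the genotypes lay 1.77 apart, more than the SD of either (0.24 in Irf4-/- and 0.31 in WT). Tnfsf10 rose 4.45-fold, a difference of 2.15 ± 0.24 (SE; 95% interval 1.54 to 2.77; limma, adjusted p = 0.0456), and 1.25% of tested genes differed by at least as much. Within slide rows 1 and 2 the difference was 1.77 and 2.54. The call was lost with quantile normalization (adjusted p = 0.0903), without a filter on dim probes (0.500), with slide row as a replicate block (0.136) and without Irf4-/- replicate 2 (0.0506), WT replicate 1 (0.106) or WT replicate 2 (0.164), while the difference itself stayed between 1.84 and 2.37.

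Genes induced by interferon, to which Tnfsf10 belongs by background knowledge, were read beside it. All 13 measured members of such a list had positive differences and 12 did not overlap on the higher side, against 46.7% and 17.9% of all tested genes. Their median difference was 2.12, or 1.98 with Oasl2 and Ifi44, not well above background in WT cells, at their bounds. The summed linear signal of the list was 149 and 287 in Irf4-/- cells, against 84.9 and 106 in WT cells, in multiples of the 75th percentile of the array. Oasl2, an oligoadenylate synthetase-like gene, was well above background in Irf4-/- cells only and at least 43.8-fold higher (limma, adjusted p = 0.0318). It entered the test through the Irf4-/- arrays alone, and its p rests on WT signals below background. The other 12 did not pass, among them Oas1a (difference 3.10, adjusted p = 0.0561) and Rtp4 (4.81, adjusted p = 0.0839). The list spread widely between the Irf4-/- arrays, with Oas2 at -1.67 and 1.29, whereas the SD of Tnfsf10 over the same arrays was 0.24. The part of this list in the Tnfsf10 result was not tested.

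Fas ligand kills cells that carry Fas and limits T cell responses. Fasl had levels of 2.17 and 2.36 in Irf4-/- cells, against 1.83 and 1.58 in WT cells. The Irf4-/- arrays were both higher, by 0.35 at the nearest. The difference of 0.57 ± 0.19 (SE), or 1.48-fold, did not pass (limma, adjusted p = 0.358), and its 95% interval ran from 1.05-fold to 2.09-fold.

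TNF and lymphotoxin alpha are the closest relatives in the family and share the receptors encoded by Tnfrsf1a and Tnfrsf1b, yet their signals lay on opposite sides. Tnf had levels of 0.16 and 0.31 in Irf4-/- cells, against 1.14 and 0.59 in WT cells, a difference of -0.63 ± 0.24 (SE; limma, adjusted p = 0.441). Its second probe read -0.62 and -1.03 in Irf4-/- cells, against -0.26 and -0.52 in WT cells, a difference of -0.44. The difference of the first was -0.35 without WT replicate 1 and -0.90 without WT replicate 2. Both probes of Tnf were thus lower in Irf4-/- cells without overlap, and the 95% interval of the first ran from 0.419-fold to 1.00-fold of WT.

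Lta, the gene of lymphotoxin alpha, stood at 3.55 and 3.87 in Irf4-/- cells, against 2.74 and 1.86 in WT cells. Both Irf4-/- arrays were above both WT arrays by at least 0.81, and the WT arrays spread more widely (SD 0.62) than the Irf4-/- arrays (0.22). The difference was 1.41 ± 0.34 (SE), or 2.65-fold, with a 95% interval from 1.45-fold to 4.87-fold and no call (limma, adjusted p = 0.195). It was 0.81 in slide row 1 and 2.00 in row 2.

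Lymphotoxin beta anchors lymphotoxin alpha in the membrane as a heterotrimer that acts on the receptor encoded by Ltbr and organises lymphoid tissue. Ltb had levels of 7.11 and 7.24 in Irf4-/- cells, against 7.32 and 7.48 in WT cells. The gap between the nearest arrays was 0.07, below the SD of either genotype (0.10 in Irf4-/- and 0.12 in WT). The difference of -0.22 ± 0.18 (SE) did not pass (limma, adjusted p = 0.804), and the 95% interval ran from 0.623-fold to 1.18-fold of WT. The subunits of the lymphotoxin heterotrimer therefore had values of opposite sign, although neither gene passed.

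Tnf, Lta and Ltb lie side by side on chromosome 17, and their promoters are shown together with those of Tnfsf10, the called gene, and Tnfsf14, in which an AP-1 match was found. The sequences are the 250 bases before each annotated start in RefSeq on GRCm38.p6, 5′ to 3′ on the strand of the gene. Capitals mark matches to any of 8 motifs searched on both strands: the interferon regulatory factor (IRF) repeat GAAANNGAAA, the ETS-IRF composite GGAANNGAAA, the AP-1 site TGANTCA, the AP-1-IRF composites GAAATGANTCA and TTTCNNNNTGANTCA (each of which contains the AP-1 site), the NF-kB motif, the NFAT core TGGAAA and the TATA box TATAAA.
Tnfsf10, chr3:27316827-27317076, plus strand: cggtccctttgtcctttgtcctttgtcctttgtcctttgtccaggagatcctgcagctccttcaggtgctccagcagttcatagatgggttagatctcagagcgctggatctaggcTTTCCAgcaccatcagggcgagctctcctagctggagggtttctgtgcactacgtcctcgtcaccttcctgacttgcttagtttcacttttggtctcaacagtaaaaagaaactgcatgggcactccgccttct
Lta, chr17:35205352-35205601, minus strand: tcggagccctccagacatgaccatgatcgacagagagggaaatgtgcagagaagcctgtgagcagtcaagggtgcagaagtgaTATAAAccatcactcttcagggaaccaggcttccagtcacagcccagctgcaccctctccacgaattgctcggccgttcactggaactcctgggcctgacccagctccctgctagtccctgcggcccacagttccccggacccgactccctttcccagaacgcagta
Tnf, chr17:35202008-35202257, minus strand: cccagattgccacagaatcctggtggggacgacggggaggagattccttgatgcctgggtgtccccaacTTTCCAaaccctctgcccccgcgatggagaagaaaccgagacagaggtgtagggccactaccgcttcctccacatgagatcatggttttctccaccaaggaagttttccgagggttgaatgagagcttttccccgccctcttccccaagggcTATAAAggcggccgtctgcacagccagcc
Ltb, chr17:35194257-35194506, plus strand: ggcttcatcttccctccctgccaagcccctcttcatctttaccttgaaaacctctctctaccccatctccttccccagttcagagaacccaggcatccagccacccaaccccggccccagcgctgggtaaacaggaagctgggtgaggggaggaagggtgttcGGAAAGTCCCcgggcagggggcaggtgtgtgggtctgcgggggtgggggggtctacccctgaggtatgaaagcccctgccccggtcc
Tnfsf14, chr17:57194182-57194431, minus strand: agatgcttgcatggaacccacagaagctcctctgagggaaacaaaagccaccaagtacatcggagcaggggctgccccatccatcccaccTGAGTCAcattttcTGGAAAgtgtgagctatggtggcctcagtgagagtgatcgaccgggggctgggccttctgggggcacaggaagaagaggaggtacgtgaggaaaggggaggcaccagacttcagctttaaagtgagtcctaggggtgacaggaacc

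RefSeq promoters were at hand for 8 members. None of the 8 held the IRF repeat, which 2.98% of all 32851 promoters held, the ETS-IRF composite (2.30%) or either AP-1-IRF composite (0.10% adjacent and 0.0974% spaced). The AP-1 site was found in Tnfsf14 alone, 160 bases before the start (6.75% of all promoters), and the NF-kB motif in Ltb alone, 87 bases before it (7.25%). The NFAT core was in 3 of 8, those of Tnfsf10, Tnf and Tnfsf14 (18.6% of all promoters). The TATA box letters were also in 3 of 8, 29 bases before the start in Tnf, 167 bases before it in Lta and, on the other strand, 32 bases before it in Tnfsf11 (12.4%). A match is a run of letters, not a bound site.

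Among the costimulatory ligands, OX40 ligand, encoded by Tnfsf4, sustains T cells that carry OX40 and is best known on antigen-presenting cells, though activated T cells make it too. Tnfsf4 had levels of 0.20 and 0.19 in Irf4-/- cells, against -1.69 and -2.90 in WT cells. The Irf4-/- arrays were nearly equal (SD 0.00638) while the WT arrays spread (SD 0.86), and 1.87 still separated the genotypes at their nearest. The difference of 2.49 ± 0.42 (SE), or 5.61-fold, was the largest of the 9 members, with a 95% interval from 2.65-fold to 11.9-fold, and it did not pass (limma, adjusted p = 0.0939). It was 1.49 with the normexp background correction, which adds an offset and draws dim signals together, and lay between 1.88 and 3.10 when 1 array was left out.

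CD30 ligand, encoded by Tnfsf8, acts on CD30 of activated lymphocytes. Tnfsf8 had levels of 1.72 and 1.73 in Irf4-/- cells, against 1.05 and 0.45 in WT cells. Here too the Irf4-/- arrays lay close together and the WT arrays apart. The difference was 0.98 ± 0.25 (SE), or 1.97-fold, with a 95% interval from 1.25-fold to 3.09-fold and no call (limma, adjusted p = 0.225).

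CD40 ligand is the signal by which helper T cells license B cells and dendritic cells. The only Cd40lg probe matched by accession read -3.44 and -4.54 in Irf4-/- cells, against -4.70 and -6.29 in WT cells. It was well above background on Irf4-/- replicate 1 and on no other array, so no fold is given and Cd40lg was left out of the test. At this signal neither the presence of the transcript in WT cells nor a difference between the genotypes could be read.

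RANK ligand, encoded by Tnfsf11, lets T cells act on dendritic cells and osteoclast precursors. Its brighter probe had levels of 0.43 and -0.02 in Irf4-/- cells, against -0.61 and -1.96 in WT cells, and its dimmer probe -1.36 and -1.40 in Irf4-/- cells, against -2.74 and -3.57 in WT cells. Both probes put both Irf4-/- arrays above both WT arrays. The brighter one differed by 1.49 ± 0.48 (SE), or 2.82-fold, with a 95% interval from 1.19-fold to 6.67-fold and no call (limma, adjusted p = 0.330), and the dimmer one by 1.77. Without WT replicate 2 the difference was 0.82 and without WT replicate 1 it was 2.17.

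LIGHT, encoded by Tnfsf14, binds HVEM on T cells and the lymphotoxin beta receptor on stroma. Tnfsf14 had levels of 1.91 and 1.83 in Irf4-/- cells, against 0.98 and 0.89 in WT cells. Replicates agreed closely in both genotypes (SD 0.056 in Irf4-/- and 0.064 in WT). The difference was 0.94 ± 0.17 (SE), or 1.92-fold, nearly the same in slide rows 1 and 2 (0.94 and 0.95), with a 95% interval from 1.42-fold to 2.59-fold. It did not pass over all genes (limma, adjusted p = 0.109).

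**Figure D2:**
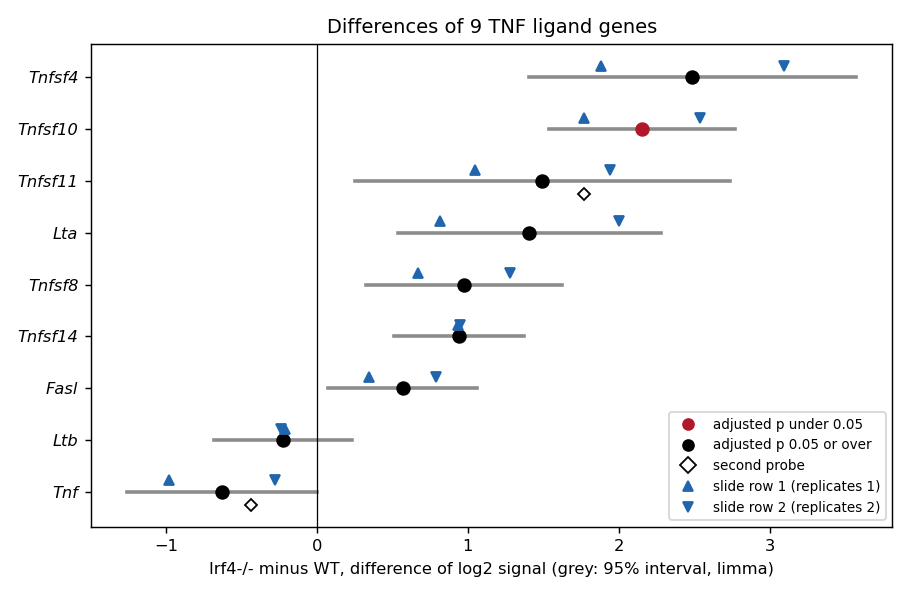
Irf4-/- minus WT difference of log2 signal for the 9 tested TNF ligand genes, with the 95% interval of limma in grey, the differences within slide rows as triangles and second probes as diamonds. Tnfsf10 (2.15) is the called gene, Tnfsf4 has the largest value (2.49), and the intervals of Tnf and Ltb include 0.

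The members' replicates had a common pattern in WT cells. On the probe that stood for each gene, the SD of the WT arrays exceeded that of the Irf4-/- arrays for all 9 tested members, against 48.7% of all tested genes. The margin was small for Ltb (0.12 against 0.10) and Tnfsf14 (0.064 against 0.056). The second probe of Tnf went the other way, with an SD of 0.18 in WT and 0.29 in Irf4-/- cells. WT replicate 1 was above WT replicate 2 for 8 of 9, the exception being Ltb, against 53.8% of all tested genes. Median SD over the 9 members was 0.11 in Irf4-/- cells and 0.39 in WT cells, whereas over all tested genes it was 0.17 in Irf4-/- cells and 0.16 in WT cells. For 8 of 9 members (all but Ltb) the difference between genotypes was the more positive in slide row 2, as it was for 49.7% of all tested genes. This follows from the wider WT spread and the order of the WT arrays, and is not a further result. The second probe of Tnf again went the other way (-0.36 in row 1 and -0.51 in row 2). With 2 arrays per genotype each SD rests on 1 pair of values, and the cause was not tested.

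The number of called members depended on how the arrays were treated. With the normexp correction 6 of the 9 were called higher (Lta, Tnfsf4, Tnfsf8, Tnfsf10, Tnfsf11 and Tnfsf14; 2.25% of all genes were called higher in that fit). With a trended and robust prior variance 4 were called higher (Tnfsf4, Tnfsf8, Tnfsf10 and Tnfsf14; 2.37% of all genes), and with median scaling also 4 (Lta, Tnfsf4, Tnfsf10 and Tnfsf11; 2.9% of all genes). With quantile normalization none was called higher (0.0146% of all genes). In that fit 7 members had an unadjusted p under 0.05, as did 2512 of the 20505 tested genes.

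**Figure D3:**
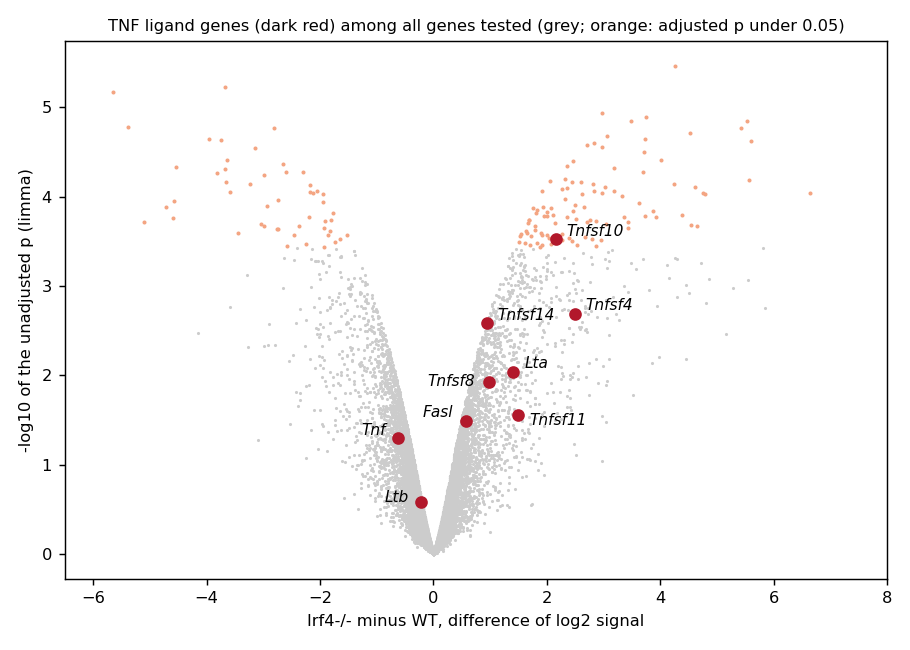
Each tested gene by its Irf4-/- minus WT difference of log2 signal and the negative log10 of its unadjusted p (limma), with the 9 TNF ligand genes in dark red and called genes in orange. Tnfsf10 lies at the edge of the called genes at 2.15, and Tnfsf4 further out at 2.49 but below them.

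Ligand genes lie in clusters, so genes beside them were read as well, in the gene order of the RefSeq table. In the chromosome 17 cluster the order is Lst1, Ltb, Tnf, Lta, Nfkbil1. Lst1 and Nfkbil1, which flank the ligands, differed by -0.04 ± 0.25 and -0.06 ± 0.20 (SE), with adjusted p of 0.994 and 0.982 (limma), so the positive value of Lta was not shared by its neighbours on either side. On chromosome 1, Tnfsf4 and Fasl flank Tnfsf18, the gene of GITR ligand, which was not well above background on any array. Prdx6, an antioxidant enzyme gene on the far side of Tnfsf4, differed by 0.64 (limma, adjusted p = 0.305). It was higher in Irf4-/- cells without overlap, as were 17.9% of all tested genes. Suco, beyond Fasl, differed by 0.03 (adjusted p = 0.992). Beside Tnfsf14 on chromosome 17 lie Cd70, with a difference of 1.49, and Tnfsf9, with one of -0.48. Of 28 tested neighbours that are not members, 13 had positive differences (median -0.05). None was called, but with 0.493% of all tested genes called higher and 0.244% lower that count does not set them apart. Beside Tnfsf10 on chromosome 3, Nceh1 differed by 0.02 ± 0.24 (SE; adjusted p = 0.996). On the other side of Tnfsf10, Fndc3b differed by 1.02 ± 0.26 (SE; adjusted p = 0.226), higher in Irf4-/- cells without overlap and above background on 1 of 2 WT arrays.

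**Figure D4:**
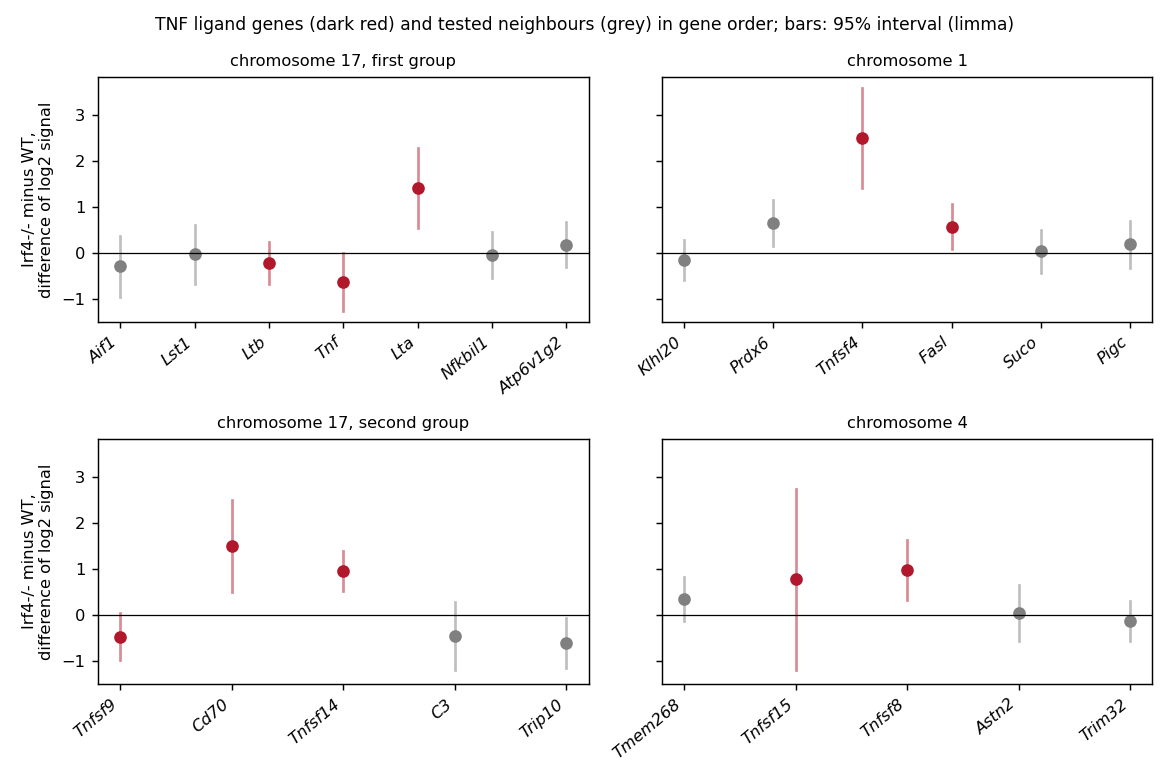
Irf4-/- minus WT difference of log2 signal of ligand genes of the TNF family, members or not (dark red), and other tested neighbours (grey) in gene order, with 95% intervals (limma). Lta at 1.41 stands above Nfkbil1 (-0.06) beside it. Tnfsf4 at 2.49 stands above its nearest tested genes, Prdx6 (0.64) and Fasl (0.57), which were both higher in Irf4-/- cells without overlap. Cd70 and Tnfsf15 were above background on 1 of 2 WT arrays.

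Other ligands of the family were read as well. Of 8 such genes 7 were measured and 4 tested (3 positive, 1 negative). Of the 4, 1 passed and 3 did not, where 0.493% of all tested genes were called higher and 0.244% lower. Tnfsf13b, which encodes the B cell survival factor BAFF, was at -2.59 and -2.80 in Irf4-/- cells and not well above background in WT cells. It rose at least 3.36-fold (limma, adjusted p = 0.0293), a bound set by the background. It entered the test through the Irf4-/- arrays alone, and its p rests on WT signals below background. Cd70, the gene of the CD27 ligand, was at -2.95 and -2.28 in Irf4-/- cells, against -3.68 and -4.54 in WT cells, above background on 1 of 2 WT arrays (difference 1.49, adjusted p = 0.223). Tnfsf9, the gene of 4-1BB ligand, was at -0.43 and -0.28 in Irf4-/- cells, against -0.04 and 0.29 in WT cells (difference -0.48, adjusted p = 0.483). Tnfsf15 differed by 0.77 with overlapping arrays (adjusted p = 0.870).

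The receptor genes did not follow the ligand genes as a group. Of 13 receptor genes of the 10 ligands 10 were tested, and 5 differences were positive and 5 negative (median -0.02). None was called, where 0.493% of all tested genes were called higher and 0.244% lower, too few for that count to set the receptors apart. Without overlap, 3 of the 10 lay higher and 1 lower in Irf4-/- cells, against 17.9% and 21.3% of all tested genes. The largest test statistics belonged to the receptors of TNF and Fas ligand. Tnfrsf1a, the gene of the death domain TNF receptor, was at 1.29 and 1.18 in Irf4-/- cells, against 2.04 and 2.00 in WT cells (difference -0.78, limma, adjusted p = 0.157). Tnfrsf1b, the gene of the TRAF-binding TNF receptor, was at 1.49 and 1.70 in Irf4-/- cells, against 0.76 and 0.66 in WT cells (difference 0.88, adjusted p = 0.141). The genes of the 2 TNF receptors thus had differences of opposite sign, and neither passed.

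Fas was at 2.83 and 3.28 in Irf4-/- cells, against 1.85 and 1.98 in WT cells (difference 1.14 ± 0.22 SE, limma, adjusted p = 0.124), on the same side as Fasl. Tnfrsf10b, the gene of the TRAIL death receptor, differed by -0.18 ± 0.22 (SE; adjusted p = 0.911), so beside the called ligand gene this receptor gene had overlapping arrays. Tnfrsf22 and Tnfrsf23 were read as TRAIL receptor genes too. Tnfrsf22 differed by 0.09 (adjusted p = 0.952), higher in Irf4-/- cells without overlap but by only 0.002 at the nearest. Tnfrsf23 differed by -0.12 (adjusted p = 0.982) with overlapping arrays. The OX40 gene Tnfrsf4 differed by -0.14 ± 0.19 (SE; adjusted p = 0.928) and the HVEM gene Tnfrsf14 by -0.21 ± 0.28 (SE; adjusted p = 0.924), again with overlapping arrays. Cd40, best known on B cells, differed by 1.84 (adjusted p = 0.613) and was above background on 1 of 2 WT arrays. Ltbr, Tnfrsf8 and Tnfrsf11b were not well above background on any array.

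**Figure D5:**
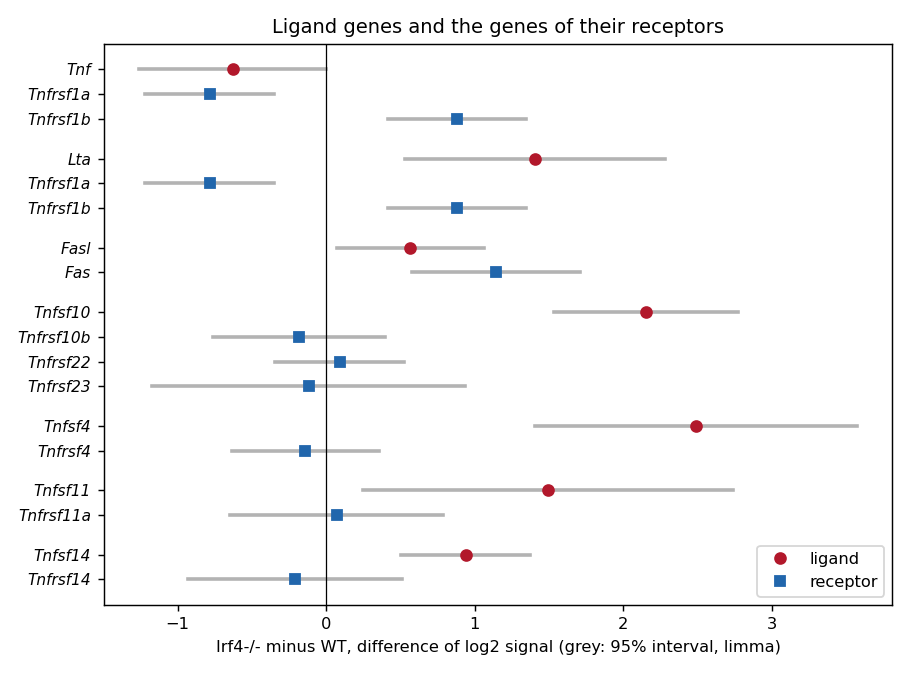
Irf4-/- minus WT difference of log2 signal for TNF ligand genes (circles) and the genes of their receptors (squares), with 95% intervals (limma). The receptor genes of TRAIL, OX40 ligand, RANK ligand and LIGHT lie near 0 (-0.18 for Tnfrsf10b and -0.14 for Tnfrsf4) beside ligand genes between 0.94 and 2.49.

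Inside the cell, 21 genes of the signalling complexes below these receptors were all tested (11 positive, 10 negative, median 0.07). None was called, where 0.493% of all tested genes were called higher and 0.244% lower. Those with the smallest p were Traf1, an NF-kB-induced adaptor gene (difference 0.58, limma, adjusted p = 0.278), the adaptor gene Tank (0.56, adjusted p = 0.287), Tnfaip3, the gene of the NF-kB feedback inhibitor A20 (0.59, adjusted p = 0.315), and the death effector gene Bid (0.53, adjusted p = 0.424). Without overlap, 9 of the 21 lay higher and 6 lower in Irf4-/- cells, against 17.9% and 21.3% of all tested genes. The sheddase genes Adam10 and Adam17 differed by -0.24 (adjusted p = 0.860) and -0.11 (adjusted p = 0.938).

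Other cell types make several of these ligands, so their markers were read beside the members. Summed linear signal of 8 B cell markers was 6.94 and 3.02 in Irf4-/- cells, against 3.07 and 1.69 in WT cells, so it was higher in Irf4-/- cells within each slide row and overlapped across rows. All 8 were tested with none called, 7 differences were positive, and their median was 0.86. Cd72 (difference 1.87, limma, adjusted p = 0.0981) and Cd22 (0.56, adjusted p = 0.324) were higher in Irf4-/- cells without overlap. They were the only 2 of the 8, against 17.9% of all tested genes. Cd79a, above background on 1 of 2 Irf4-/- arrays, had the negative difference (-0.84), and Pax5 differed by 0.07, both with overlapping arrays. Of 7 measured myeloid markers, Lyz2, Itgax and Adgre1 were not well above background on any array. The sum, mostly Itgam and Csf1r, was 11.1 and 10.2 in Irf4-/- cells, against 11.6 and 12.4 in WT cells. Of the 3 tested, Itgam differed by -0.30, lower without overlap, and Csf1r by 0.01. Fcer1g was at -0.93 and -1.45 in Irf4-/- cells, against -1.93 and -2.25 in WT cells, higher without overlap (difference 0.90, limma, adjusted p = 0.259). Of 4 natural killer cell markers, Ncr1 and Klre1 were not well above background on any array and Klrb1c was on 1 array of each genotype. The sum, 2.95 and 3.67 in Irf4-/- cells, against 0.67 and 1.33 in WT cells, was mostly Klrd1, which T cells can express and which differed by 1.87 (limma, adjusted p = 0.157). Of the CD8 markers Cd8b1 differed by -0.98 (adjusted p = 0.0979) and Cd8a was above background on 1 array of each genotype, and they summed to 4.76 and 4.45 in Irf4-/- cells, against 8.77 and 9.29 in WT cells. Of the erythroid and platelet markers reported here, Pf4 and Ppbp were not well above background on any array, and Hba-a1 was at -1.03 and 0.35 in Irf4-/- cells, against -1.14 and -1.42 in WT cells (difference 0.95, adjusted p = 0.591). The part of the B cell markers, Fcer1g, Klrd1 and Hba-a1 in the members' differences was not tested.

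Genes with patterns most like the extreme members were named by the root mean square distance of levels over the 4 arrays, each gene centred on its mean, among 12027 other genes with a symbol above background on all arrays. For Tnfsf4 these were Gm14718 (distance 0.067), the activation marker gene Cd83 (0.069) and Lad1 (0.158), with differences of 2.46, 2.46 and 2.63. For Tnf they were the immediate early gene Fos (0.047), Mier3 (0.060) and Ap1ar (0.061), with differences of -0.68, -0.64 and -0.62. None of the 6 was called (limma, adjusted p between 0.0539 and 0.545). With 4 arrays many genes can take a similar course. That their differences lie near those of Tnfsf4 and Tnf follows from the way they were chosen.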

How the data were processed

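Per the file headers, the authors extracted spot intensity from one-colour (Cy3) Agilent arrays with Feature Extraction 11.0.1.1 (9.1 per the submitters' processing notes) on a design annotated on mm9. The deposited intensity is background-subtracted and not normalized between arrays. The authors also deposited log2 values, which matched the scanner files after centring each probe on its mean over the 4 arrays (lowest r over the arrays 0.999987, with median shifts from -0.02 to 0.03). Their column medians were -0.11 and 0.12 for Irf4-/- and -0.17 and 0.10 for WT, so they carry differences but no levels.

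Control and flagged spots were left out, and spots of a probe were averaged as log2 intensity minus the array's 75th percentile. Accessions of 32914 probes matched 22874 symbols in RefSeq (GRCm38.p6). The brightest probe on average stood for a gene. Irf4-/- and WT were compared with limma 3.58.1 in R 4.3.3 (lmFit, eBayes) over 20505 genes, with Benjamini-Hochberg adjustment, 2 residual and 2.95 prior degrees of freedom. The procedure was tested on simulated data. The fit was repeated under 13 alternatives. The scanner files held no mean signal, so the normexp alternative (offset 50) used the median signal in its place.

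The members, lists and tests were chosen with earlier results of these data known. Besides the members, the rule for named genes took list members past the threshold, up to 4 further with the smallest p, 2 tested neighbours per side and the 3 nearest patterns; other genes named were chosen after their values were seen. Whether samples came from separate animals is not stated beyond the independent experiments. Deviations of same-numbered arrays from their group means correlated at 0.348 across genes; the labels do not pair them. Array number limits the precision. One marker gene of the erythroid and platelet list is not reported here.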

Additional observations from a re-analysis of the deposited data

How the results depend on the processing

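No tested member's difference changed sign under any of the 13 alternatives, but most of these could not reverse it. The replicate block, the prior variance and the filters on dim probes leave a difference as it is. The genotypes did not overlap in any tested member, so leaving out 1 array cannot reverse a sign either. Against 151 genes and 1 member called, the numbers were 760 genes and 6 members with normexp, 1042 and 4 with median scaling, 797 and 4 with trended robust variance, 5 and 0 with quantile normalization, 0 and 0 without a filter on dim probes (2099 genes and 6 members at an unadjusted p under 0.05), and 260 genes with the authors' deposited log2 values. With slide row as a replicate block 0 genes and 0 members were called (3195 and 7 at an unadjusted p under 0.05). Leaving out 1 array gave 0 to 487 genes and 0 to 1 members; the 0 counts for genes came without WT replicate 1 (1864 unadjusted) or WT replicate 2 (1678 unadjusted), and a lone array was taken to vary like the other genotype. Tnfsf10 was called without Irf4-/- replicate 1 (adjusted p = 0.0211). Median scaling shifted the median of all genes to -0.13, and no direction of a member depended on it. Cd40lg, at or near background, had no usable value. The causes were not tested.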
